A study of Mus musculus with 8 samples.

Results

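The SLAM receptors are a family of paired cell-surface molecules of blood cells, and Sh2d1a encodes SAP, the small adaptor that most of them bind. The 9 genes described here are Slamf1, Slamf6, Slamf7, Slamf8, Slamf9, Cd48, Cd84 and Ly9, which lie on chromosome 1 in a region linked to the number of natural killer T (NKT) cells in the NOD mouse, and Sh2d1a on the X chromosome. They were taken by symbol, through GENCODE M21, from 53465 genes listed in each count table, and all 9 were found. The RNA came from double-positive thymocytes, immature T cells with both CD4 and CD8, sorted from the thymus of NOD/ShiLtJ mice, the inbred strain known as NOD that develops autoimmune diabetes spontaneously, and of C57BL/6J mice, the strain used for comparison. Mice of both strains were untreated as far as the labels say, and the labels name no transgene or other allele; age and sex are not given in the labels. Each strain has 4 libraries, titled with a B and a T number whose meaning is not spelled out, and those of equal B number were added up, which leaves 2 samples per strain. The labels do not state that the samples are separate animals. The p-values therefore reflect the spread among these samples, and that spread could be technical.

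SLAM receptors mostly bind a receptor of the same kind on a neighbouring cell. Tyrosine motifs in the tails of SLAMF1, SLAMF6, LY9 and CD84 recruit SAP, which brings in the kinase FYN; CD48 has no such tail, since it is held in the membrane by a lipid anchor. Double-positive thymocytes present CD1d with lipids to developing NKT cells and at the same time engage them through SLAMF1 and SLAMF6, and mice without SAP lack NKT cells. NOD mice have few NKT cells, and Slamf1 was proposed as a candidate for a chromosome 1 locus that controls their number.

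The sorted stage was checked first. The 10 markers of double-positive thymocytes held 12180 to 15435 CPM (gene counts scaled to a common library total with TMM factors) in NOD libraries and 16662 to 19024 CPM in C57BL/6J libraries, and edgeR called 0 of them (3 had an unadjusted p under 0.05, and DESeq2 called 0). Cd4 stood at 1292 ± 66.6 CPM in NOD and 1250 ± 159 CPM in C57BL/6J (mean ± SD, n = 2 summed samples per strain, as for every mean below), and Cd8a at 1659 ± 29.6 CPM in NOD and 1562 ± 120.1 CPM in C57BL/6J. For 4 of the 10 markers all NOD libraries lay on one side of all C57BL/6J libraries, as they did for 17.0% of all tested genes. NOD was lower for Cd8b1, the CD8 beta chain (1075 ± 101 CPM in NOD and 1728 ± 201 CPM in C57BL/6J; log2 fold change NOD over C57BL/6J -0.68 ± 0.18, edgeR adjusted p = 0.0911), and for the recombinase genes Rag1 (5896 ± 948 CPM in NOD and 8991 ± 795 CPM in C57BL/6J; -0.61 ± 0.21, adjusted p = 0.217) and Rag2 (286 ± 0.414 CPM in NOD and 359 ± 20.8 CPM in C57BL/6J; -0.33 ± 0.16, adjusted p = 0.444). NOD was higher for Ptcra, the pre-T cell receptor chain of the stage before (48.2 ± 0.802 CPM in NOD and 27.96 ± 10.5 CPM in C57BL/6J; 0.79 ± 0.26, adjusted p = 0.179). The part of these markers in the members' values was not tested. The NOD libraries were deeper, at 23.5 to 30.4 M gene reads each in NOD and 8.5 to 15.7 M in C57BL/6J. Over the 8 markers of mature single-positive thymocytes the libraries held 177 to 241 CPM in NOD and 197 to 211 CPM in C57BL/6J. By edgeR 0 of the 8 were called, with 4 at an unadjusted p under 0.05, and DESeq2 called 3.

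Slamf1, the receptor CD150, was the 1 member whose RNA differed past the test, and it was about 10.2-fold lower in NOD. Its level was 12.9, 14.5, 8.79 and 10.6 CPM in the NOD libraries B1 T1, B1 T2, B2 T1 and B2 T2, against 109, 123, 131 and 117 CPM in the C57BL/6J libraries in the same order. The highest NOD library lay far below the lowest C57BL/6J library. The means were 11.7 ± 2.91 CPM in NOD and 119.7 ± 8.70 CPM in C57BL/6J, a log2 fold change of -3.36 ± 0.22 (SE; NOD over C57BL/6J; edgeR quasi-likelihood test, adjusted p = 5.97e-05 over 17291 genes). Slamf1 had 266 to 337 reads per library in NOD and 1030 to 2078 reads per library in C57BL/6J, although the NOD libraries were the deeper ones. In bulk RNA, fewer cells with the transcript and less transcript per cell cannot be told apart. Reads of both strains were aligned to GRCm38, the assembly of C57BL/6J. Any effect of sequence differences between the strains on the counts of Slamf1 or other genes was not tested. Among the 33 genes called lower in NOD with at least the C57BL/6J level of Slamf1, 2 had a larger fold. The call held in all 12 other fits, with an adjusted p of at most 0.000635.

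Across the members, 7 of 9 passed the filter on low counts and were tested, and 1 of these 7 was called (Slamf1, lower), against 3.68% of all tested genes called in either direction and 1.78% called lower. A call at least 8-fold lower, as for Slamf1, was made for 0.723% of tested genes. The filter asks for counts in at least as many samples as the smaller group holds. The median log2 fold change of the 7 was 0.14, and that of all tested genes 0.02. The NOD and C57BL/6J libraries did not overlap for 3 of the 7, Slamf1, Slamf6 and Cd48, against 17.0% of all tested genes. NOD was the lower strain for Slamf1 and Slamf6 (8.85% of tested genes) and the higher for Cd48 (8.20%). Slamf8 and Slamf9 had too few reads to be tested.

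**Figure D1:**
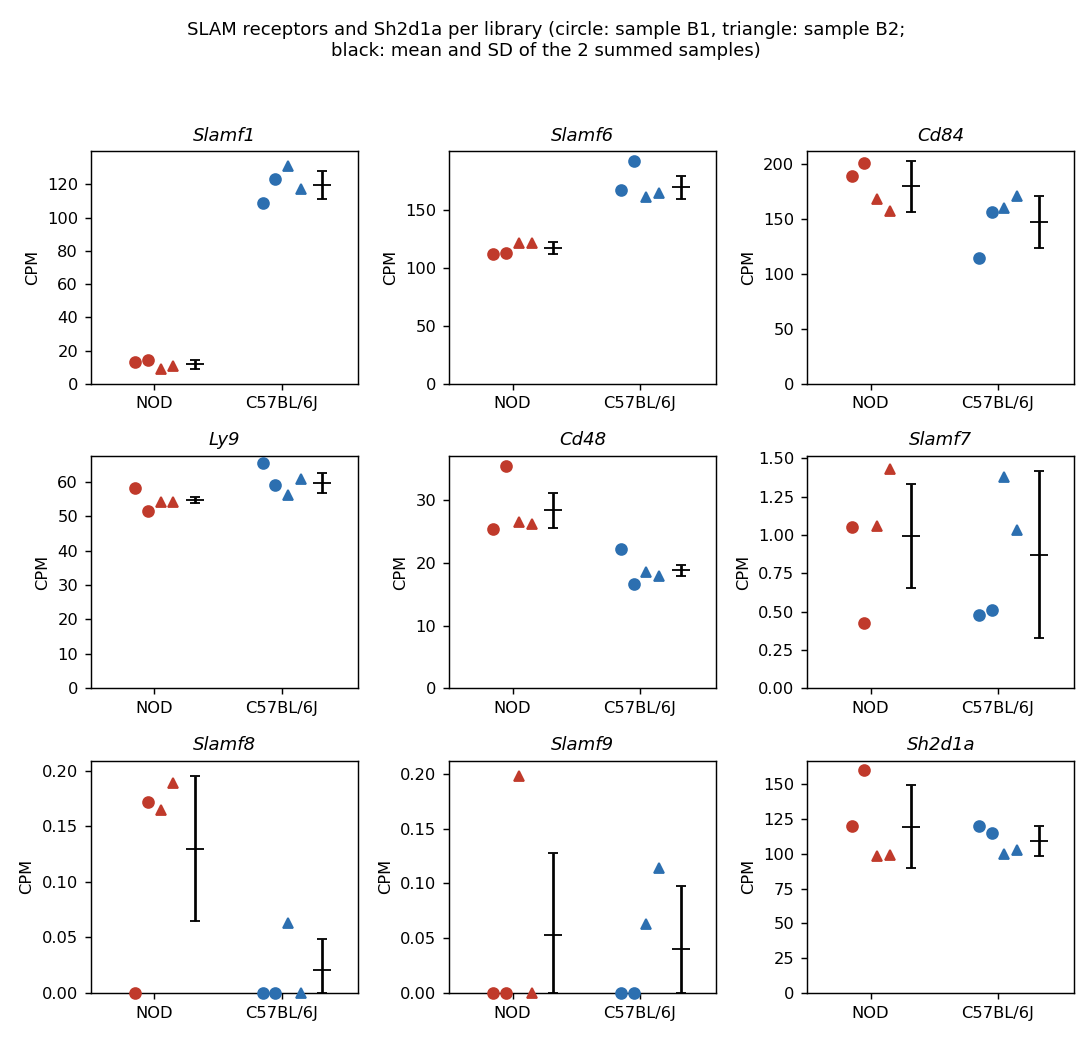
Level of each member in CPM (linear axes from 0) in the 4 NOD libraries (red, left) and the 4 C57BL/6J libraries (blue, right); circles are sample B1, triangles sample B2, and the black bar is the mean and SD of the 2 summed samples. Slamf1 stands at 8.79 to 14.5 CPM in NOD and 109 to 131 CPM in C57BL/6J, whereas Cd84, Ly9 and Sh2d1a overlap between the strains.

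The bases upstream of Slamf1 and of 3 expressed neighbours are shown because Slamf1, the called member, lies in a row of related genes. The set of RefSeq (GRCm38.p6) starts used here held a start for 7 of the 9 members, and none for Ly9 and Sh2d1a. The 250 bases before that start are printed 5′ to 3′ on the gene's strand, at chr1:171681742-171681991 for Cd48, chr1:171766882-171767131 for Slamf1, chr1:171839447-171839696 for Cd84 and chr1:171917212-171917461 for Slamf6, all on the plus strand. Capitals mark matches, on either strand, of an E-box (CANNTG), a RUNX motif (TGTGGT), an ETS core (GGAAG) or a GATA motif (AGATAA). The assembly is that of C57BL/6J, so the letters do not show the NOD sequence.
Cd48: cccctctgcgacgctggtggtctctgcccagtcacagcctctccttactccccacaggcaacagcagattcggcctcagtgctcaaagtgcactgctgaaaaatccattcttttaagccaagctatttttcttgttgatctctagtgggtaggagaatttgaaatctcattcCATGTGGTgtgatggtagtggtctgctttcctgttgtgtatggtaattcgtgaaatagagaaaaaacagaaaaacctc
Slamf1: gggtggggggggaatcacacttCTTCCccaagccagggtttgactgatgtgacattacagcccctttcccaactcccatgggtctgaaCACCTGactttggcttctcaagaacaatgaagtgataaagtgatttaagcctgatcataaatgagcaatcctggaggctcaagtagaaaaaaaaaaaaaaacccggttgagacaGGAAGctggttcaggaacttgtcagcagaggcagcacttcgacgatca
Cd84: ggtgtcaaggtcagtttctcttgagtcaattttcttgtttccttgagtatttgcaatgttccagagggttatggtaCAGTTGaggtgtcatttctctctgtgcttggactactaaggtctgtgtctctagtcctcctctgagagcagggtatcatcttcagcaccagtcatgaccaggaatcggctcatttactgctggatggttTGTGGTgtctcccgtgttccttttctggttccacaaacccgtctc
Slamf6: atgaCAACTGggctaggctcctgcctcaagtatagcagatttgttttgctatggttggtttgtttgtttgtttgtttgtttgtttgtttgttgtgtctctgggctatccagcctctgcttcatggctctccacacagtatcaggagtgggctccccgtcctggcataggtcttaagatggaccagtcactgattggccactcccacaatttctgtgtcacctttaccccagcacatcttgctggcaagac
Each of the 4 holds 1 E-box, a motif present in 66.2% of all 32851 upstream windows of that length in the table. Slamf1 holds 2 ETS cores and the other windows shown hold 0, but of the members not shown Slamf9 holds 2 and Slamf7 and Slamf8 hold 1 each, and 64.1% of all windows hold at least 1. The RUNX motif occurs once in Cd48, where it overlaps the E-box, and once in Cd84, against 14.0% of windows, and the GATA motif in none of the 4, against 9.99%. A match is only a run of letters and no evidence of binding.

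Slamf6 encodes Ly108, the other receptor of the NKT selection contact. It stood at 112, 113, 121 and 121 CPM in the NOD libraries and at 167, 192, 161 and 164 CPM in the C57BL/6J libraries. Every NOD library was below every C57BL/6J library, with the groups closer together than for Slamf1. The means were 117 ± 5.45 CPM in NOD and 169 ± 10.1 CPM in C57BL/6J (log2 fold change -0.53 ± 0.16, edgeR adjusted p = 0.139), so the difference did not pass the test. With the 8 libraries entered as separate samples it did (adjusted p = 0.00177), a fit that counts libraries of 1 sample as independent and called 10.1% of its genes.

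Cd84, the member with the most reads in NOD, encodes a receptor that binds itself and, through SAP, takes part in contacts between T and B cells. It held 189, 201, 168 and 157 CPM in the NOD libraries and 114, 156, 159.97 and 171 CPM in the C57BL/6J libraries. The groups overlapped, and 2 NOD libraries, both of sample B1, lay above every C57BL/6J library. The difference did not pass the test (0.29 ± 0.18, adjusted p = 0.628).

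Ly9 encodes CD229, a receptor reported to restrain innate-like lymphocytes in mice. It held 58.1, 51.4, 54.0 and 54.0 CPM in NOD libraries and 65.4, 59.1, 56.0 and 60.8 CPM in C57BL/6J libraries. The groups overlapped (-0.13 ± 0.17, adjusted p = 0.855). Ly9 shares its place with Cd244a on the opposite strand, but none of their exon bases coincide.

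Cd48 encodes the lipid-anchored ligand of CD244 and CD2. Its level was 25.3, 35.3, 26.4 and 26.2 CPM in NOD libraries and 22.2, 16.6, 18.5 and 17.8 CPM in C57BL/6J libraries. All NOD libraries stood above all C57BL/6J libraries, with NOD B1 T2 apart from the other NOD libraries. The fold did not pass the test (0.59 ± 0.21, adjusted p = 0.219), and it passed with the 8 libraries as separate samples (adjusted p = 0.0267). Cd48 and Cd84 are the nearest protein-coding neighbours of Slamf1 on either side, and both had positive log2 fold changes that were not called.

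Sh2d1a, the SAP adaptor, did not differ past the test. It held 120.3, 160.3, 98.2 and 99.2 CPM in NOD libraries and 120.1, 115, 99.8 and 103 CPM in C57BL/6J libraries. The 2 libraries of NOD sample B1 were the highest NOD libraries, and the groups overlapped. The means were 119.6 ± 29.6 CPM in NOD and 109 ± 10.7 CPM in C57BL/6J (0.14 ± 0.20, adjusted p = 0.869), and the sign of the fold turned without NOD sample B1 (-0.14). Tenm1, a teneurin gene on the opposite strand, covers 26.6% of the exon bases of Sh2d1a. It stood at 15.5 ± 3.16 CPM in NOD and 8.61 ± 1.30 CPM in C57BL/6J (adjusted p = 0.179), and the strand setting of the counting is not given in the sources used here.

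Slamf7, Slamf8 and Slamf9 had the fewest reads of the members, and Slamf8 and Slamf9 had libraries with 0 reads in both strains. Slamf7, the receptor CRACC of natural killer, plasma and myeloid cells, had 26, 10, 32 and 38 reads in NOD libraries and 6, 5, 22 and 9 reads in C57BL/6J libraries, or 0.994 ± 0.339 CPM in NOD and 0.870 ± 0.544 CPM in C57BL/6J (0.19 ± 0.58, adjusted p = 0.944). The sign of that fold changed without NOD sample B2 (-0.22) and without C57BL/6J sample B1 (-0.34). Slamf8, a receptor of macrophages, had 14 reads in NOD and 1 in C57BL/6J, a ratio per read in genes of 6.54 with an exact 95% counting interval of 0.995 to 276. Slamf9, known from myeloid cells, had 6 reads in NOD, all in library B2 T1, and 2 in C57BL/6J, a ratio of 1.40 (0.251 to 14.2). Neither interval excludes equal levels, and the intervals cover counting error only.

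Markers of macrophages and dendritic cells stood higher in NOD beside these low members. Their 12 genes summed to 41.5 to 58.9 CPM in NOD libraries and 20.8 to 27.6 CPM in C57BL/6J libraries, all 11 tested had a positive fold, and 1 was called higher, Csf1r, the receptor of the macrophage growth factor (3.55 ± 0.364 CPM in NOD and 0.642 ± 0.278 CPM in C57BL/6J, 2.47 ± 0.48, adjusted p = 0.0233). The call was lost without 1 of the C57BL/6J samples, at an adjusted p of 0.0717 without C57BL/6J sample B1 and 0.146 without C57BL/6J sample B2, and also with the T1 libraries alone (0.130). DESeq2 called 3 genes of this list. B and plasma cell markers summed to 15.5 to 28.3 CPM in NOD and 13.1 to 21.8 CPM in C57BL/6J (0 of 9 called by edgeR, 1 by DESeq2), and markers of NK and innate-like T cells to 24.9 to 30.8 CPM in NOD and 18.4 to 27.3 CPM in C57BL/6J (0 of 6 called by either tool). Thymic epithelial markers summed to 7.37 to 8.08 CPM in NOD and 4.21 to 7.52 CPM in C57BL/6J, and red cell markers to 1.54 to 13.6 CPM in NOD and 1.32 to 6.56 CPM in C57BL/6J (0 of 3 and 0 of 4 called by either tool). Of each of these 4 lists 1 gene had an unadjusted p under 0.05. No marker of these lists was at 0 in all libraries. Their part in the values of Slamf7, Slamf8, Slamf9 and Cd48 was not tested.

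Compared per exon length, 5 receptors and SAP lay between 13.9 and 27.3 CPM per kb in all C57BL/6J libraries. Mean levels there, in CPM per kb of exons, were 23.5 ± 3.72 for Cd84, 19.7 ± 1.94 for Sh2d1a, 19.4 ± 1.41 for Slamf1, 18.1 ± 0.872 for Ly9, 15.8 ± 0.737 for Cd48 and 15.6 ± 0.936 for Slamf6. Each overlapped the next in its library range. These ranges do not compare genes within a library, so they do not settle the order of neighbours. Cd84 and Sh2d1a (both at least 18.1 CPM per kb) lay above Slamf6 (at most 17.8 CPM per kb) in every C57BL/6J library. In NOD the order of levels per kb was Cd84 (28.6 ± 3.69), Cd48 (23.8 ± 2.40), Sh2d1a (21.7 ± 5.38), Ly9 (16.5 ± 0.240), Slamf6 (10.8 ± 0.503) and Slamf1 (1.90 ± 0.473). The libraries of Cd84 overlapped those of Cd48, and those of Cd48 overlapped those of Sh2d1a. Ly9, Slamf6 and Slamf1 were separate from each other in NOD, and Slamf1 there was still above Slamf7 (0.217 ± 0.0741 CPM per kb). The exon length counts every annotated exon of a gene, used in these cells or not.

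**Figure D2:**
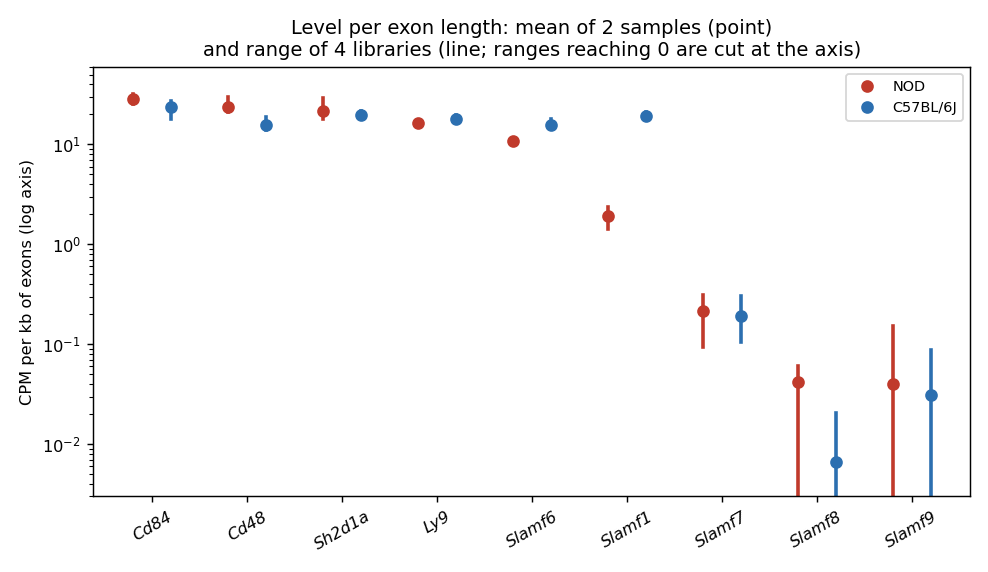
Level per kb of annotated exons (log axis) for each member, ordered by its NOD mean; points are means of the 2 samples and lines the range of the 4 libraries, NOD in red at left and C57BL/6J in blue at right. The mean of Slamf1 is 1.90 CPM per kb in NOD and 19.4 CPM per kb in C57BL/6J, while the means of the other 4 expressed receptors and Sh2d1a lie between 10.8 and 28.6 CPM per kb in both strains.

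Ratios within a library do not depend on how libraries are scaled to each other. For every 100 reads of Cd84 there were 6.85, 7.19, 5.23 and 6.74 reads of Slamf1 in the NOD libraries and 95.7, 78.7, 81.7 and 68.7 in the C57BL/6J libraries. For Slamf6 the same ratio was 59.4, 56.2, 72.1 and 76.6 reads per 100 reads of Cd84 in NOD libraries and 147, 123, 100.4 and 95.7 in C57BL/6J libraries, again without overlap. Slamf1 made up 2.96 ± 0.562% of the reads over the 8 receptor genes in NOD and 23.2 ± 0.843% in C57BL/6J. The share of Cd84 was 45.7 ± 3.13% in NOD and 28.5 ± 3.49% in C57BL/6J, and that of Slamf6 29.9 ± 3.20% in NOD and 32.8 ± 3.16% in C57BL/6J. Unlike its ratio to Cd84, the Slamf6 share overlapped, at 27.2% to 32.6% in NOD libraries and 30.5% to 35.1% in C57BL/6J libraries. Shares of 1 total move against each other. The 8 receptors summed to 392 ± 23.8 CPM in NOD and 515 ± 18.8 CPM in C57BL/6J, and without Slamf1 to 381 ± 20.8 CPM in NOD and 395 ± 10.1 CPM in C57BL/6J. These sums are given as values, and no test was run on them.

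**Figure D3:**
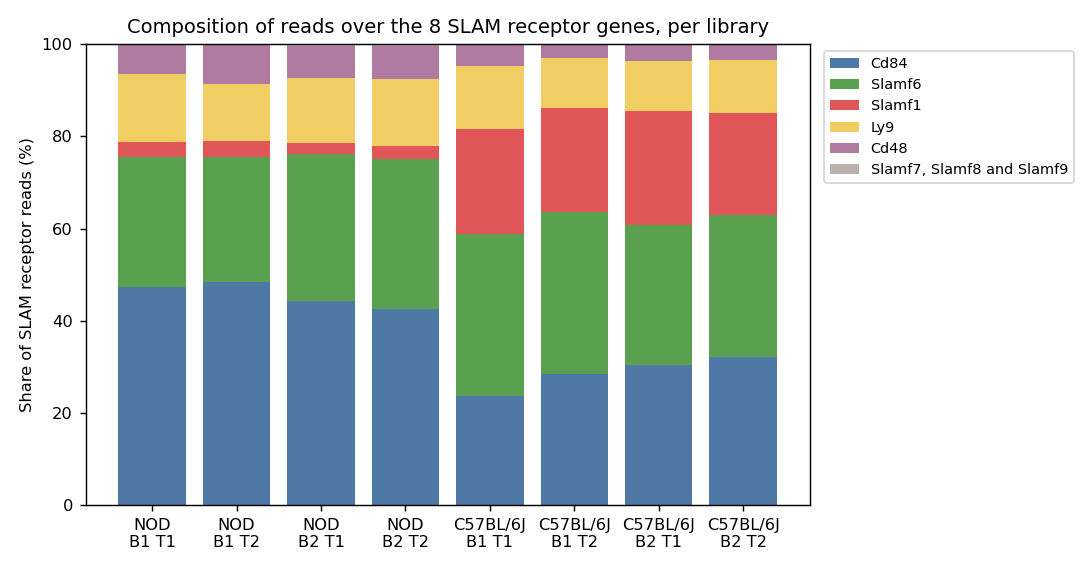
Share of the reads over the 8 SLAM receptor genes that each gene took, in percent, in the 4 NOD libraries (left) and the 4 C57BL/6J libraries (right). The Slamf1 segment is 2.31% to 3.48% in NOD and 22.1% to 24.8% in C57BL/6J.

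Of 2 tested partners of the receptors outside the 9 genes, 0 were called by edgeR or DESeq2 and 2 had an unadjusted p under 0.05. CD2, a T cell adhesion receptor that binds CD48 in mice, had 245, 233, 163 and 190.5 CPM of Cd2 RNA in NOD libraries and 159.5, 143, 130.1 and 127 CPM in C57BL/6J libraries. The NOD libraries were all above the C57BL/6J libraries, and the difference did not pass the test (0.58 ± 0.20, adjusted p = 0.194). The log2 fold change of Cd2 was 0.78 without NOD sample B2 and 0.34 without NOD sample B1. Cd244a, the CD48 receptor 2B4 of NK cells and the remaining gene of the SLAM cluster, had 77 reads in NOD and 7 in C57BL/6J (2.29 ± 0.76, adjusted p = 0.185). Library NOD B1 T2, with 0.172 CPM, overlapped the C57BL/6J range of 0 to 0.377 CPM. Of the adaptors related to SAP, Sh2d1b1 (EAT-2) had 10 reads in NOD, 8 of them in library B1 T2 and 2 in library B2 T2, and 0 in C57BL/6J. Without library B1 T2, NOD would be under the floor of 3 counts, so no fold is given. Sh2d1b2 had 0 reads in both strains.

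No gene on the list of SLAM and SAP signalling was called. Of 22 tested, edgeR and DESeq2 each called 0 (edgeR called 3.68% of all genes), 0 had an unadjusted p under 0.05, and the median log2 fold change was 0.00, with 11 positive and 11 negative. Ptprc, the phosphatase CD45, stood at 1935 ± 244 CPM in NOD and 2017 ± 239 CPM in C57BL/6J (adjusted p = 0.946). Lck, the kinase of the coreceptors, stood at 1167 ± 164 CPM in NOD and 985 ± 48.9 CPM in C57BL/6J (adjusted p = 0.696). Fyn, the kinase that SAP recruits, stood at 135 ± 20.2 CPM in NOD and 133 ± 13.3 CPM in C57BL/6J (0.02 ± 0.18, adjusted p = 0.980).

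CD1d and lipid handling held 1 called gene of 13 tested, against 3.68% of all tested genes called, and 2 of the 13 had an unadjusted p under 0.05. Ctsl, the protease cathepsin L, which mouse thymocytes need for CD1d presentation to NKT cells, held 254, 253, 216 and 263 CPM in NOD libraries and 132, 112, 86.8 and 86.8 CPM in C57BL/6J libraries. The NOD libraries lay above all others (1.24 ± 0.20, adjusted p = 0.00871), and the adjusted p was 0.0583 without C57BL/6J sample B2. Cd1d1 itself stood at 20.9 ± 4.55 CPM in NOD and 17.8 ± 1.23 CPM in C57BL/6J (adjusted p = 0.808). The most abundant of the list, Psap, whose product yields saposins that load lipids, stood at 446 ± 62.3 CPM in NOD and 472 ± 87.1 CPM in C57BL/6J (adjusted p = 0.925). Ap3b1, a subunit of the adaptor that sorts proteins to lysosomes, stood at 189 ± 21.97 CPM in NOD and 196 ± 10.3 CPM in C57BL/6J (adjusted p = 0.945). The list's median log2 fold change was 0.07, with 7 positive and 6 negative.

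Of 18 tested genes of NKT cell development edgeR called 0, with 2 at an unadjusted p under 0.05 and a median log2 fold change of 0.12 (14 positive, 4 negative), and DESeq2 called 1, Il7r. Ets1, a transcription factor of T cells, stood at 1318 ± 41.4 CPM in NOD and 1445 ± 83.6 CPM in C57BL/6J (adjusted p = 0.855), and Myb, a factor that keeps double-positive cells alive long enough to make the NKT receptor, at 1181 ± 57.4 CPM in NOD and 1137 ± 96.5 CPM in C57BL/6J (adjusted p = 0.945). Zbtb16, which encodes the NKT factor PLZF, was at 0.296 ± 0.00456 CPM in NOD and 0.226 ± 0.195 CPM in C57BL/6J (adjusted p = 0.914). Traj18, the segment of the invariant NKT receptor, stood at 13.6 ± 5.99 CPM in NOD and 16.8 ± 7.97 CPM in C57BL/6J (adjusted p = 0.865).

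Klrb1c, the NK1.1 receptor gene, was at 1.09 ± 0.0643 CPM in NOD and 0.208 ± 0.107 CPM in C57BL/6J (2.35 ± 0.61, adjusted p = 0.0796), and Il7r, the interleukin-7 receptor gene, at 12.8 ± 6.56 CPM in NOD and 4.69 ± 2.07 CPM in C57BL/6J (1.44 ± 0.45, adjusted p = 0.168). Klrb1c and Zbtb16 are also among the NK and innate-like T cell markers, and Il7r is among the mature single-positive markers.

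**Figure D4:**
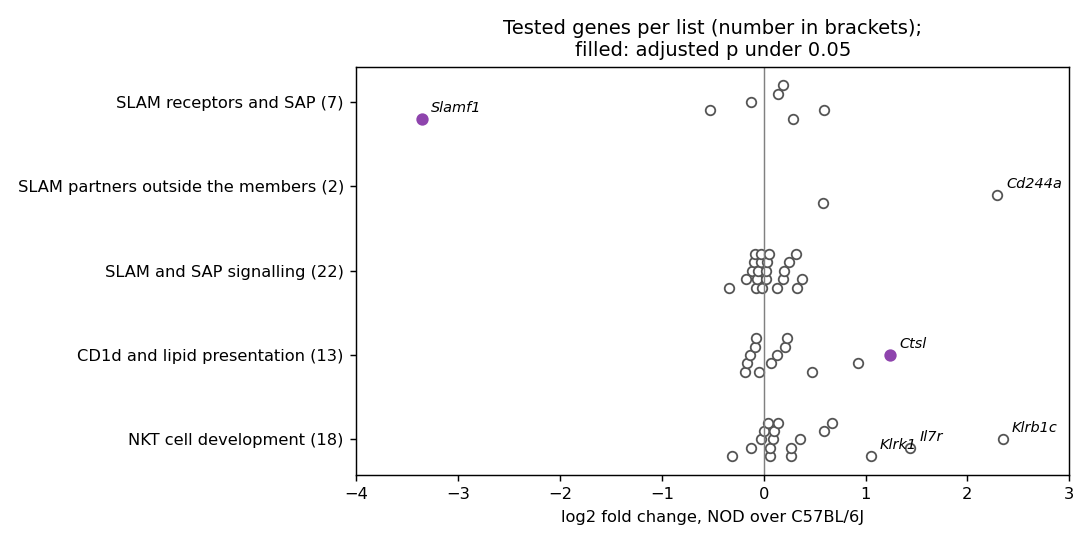
Log2 fold change (NOD over C57BL/6J) of each tested gene of the 5 lists, 1 point per gene; filled points have an adjusted p under 0.05 and the number of tested genes is in brackets. Slamf1 (-3.36) and Ctsl (1.24) are the filled points.

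Most tested genes around Slamf1 on chromosome 1 were not called. The window from 170588624 to 173590568 (GRCm38), 1 Mb beyond the outer members on each side, held 59 tested genes, of which 2 were called higher and 5 lower in NOD (11.9%, against 3.68% of all tested genes), with a median log2 fold change of -0.07. In order of position the members there are Ly9 (171588624 to 171607410, minus strand), Slamf7 (171632403 to 171653035, minus), Cd48 (171682009 to 171705258, plus), Slamf1 (171767127 to 171801184, plus), Cd84 (171839697 to 171890718, plus), Slamf6 (171917515 to 171953170, plus), Slamf9 (172475358 to 172478575, plus) and Slamf8 (172581758 to 172590568, minus). Further along, beyond Slamf6, Vangl2, a planar cell polarity gene (172000960 to 172028444), was lower in NOD, at 24.95, 22.7, 24.6 and 21.2 CPM in NOD libraries against 42.9, 42.97, 48.5 and 43.7 CPM in C57BL/6J libraries (-0.92 ± 0.19, adjusted p = 0.0274). The call was lost, with an adjusted p of 0.144 without C57BL/6J sample B1, 0.187 without C57BL/6J sample B2 0.0690 with the replicate block and 0.0567 with the T2 libraries alone.

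Gm37065, an antisense RNA across the 5′ end of Slamf6 (171909957 to 171919356), was also lower in NOD. It held 17.9, 17.4, 19.1 and 9.70 CPM in NOD libraries against 26.6, 33.1, 35.1 and 35.4 CPM in C57BL/6J libraries (-0.98 ± 0.22, adjusted p = 0.0425). The groups did not overlap, and the call was lost without C57BL/6J sample B1 (0.145), without C57BL/6J sample B2 (0.262), with the replicate block (0.0925) and with T1 (0.160) or T2 libraries alone (0.0638). It shares 0 exon bases with Slamf6, but reads from introns of either gene cannot be told apart without the strand setting. At the far end, over 1.5 Mb past Slamf1, members of the interferon-inducible DNA sensor family were called. Aim2 stood at 38.3 ± 0.887 CPM in NOD and 6.098 ± 1.57 CPM in C57BL/6J (2.65 ± 0.25, adjusted p = 0.000482). Ifi206 (-3.64 ± 0.39, adjusted p = 0.000976) and Ifi213 (-4.06 ± 0.60, adjusted p = 0.00577) were lower in NOD. This family holds near-identical genes, among which reads can be split. Gm26110, a small nuclear RNA gene on the other side, stood at 29.6 ± 10.2 CPM in NOD and 2.69 ± 1.06 CPM in C57BL/6J (3.46 ± 0.37, adjusted p = 0.00121). Whether reads of similar small nuclear RNA genes elsewhere entered its count was not tested.

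**Figure D5:**
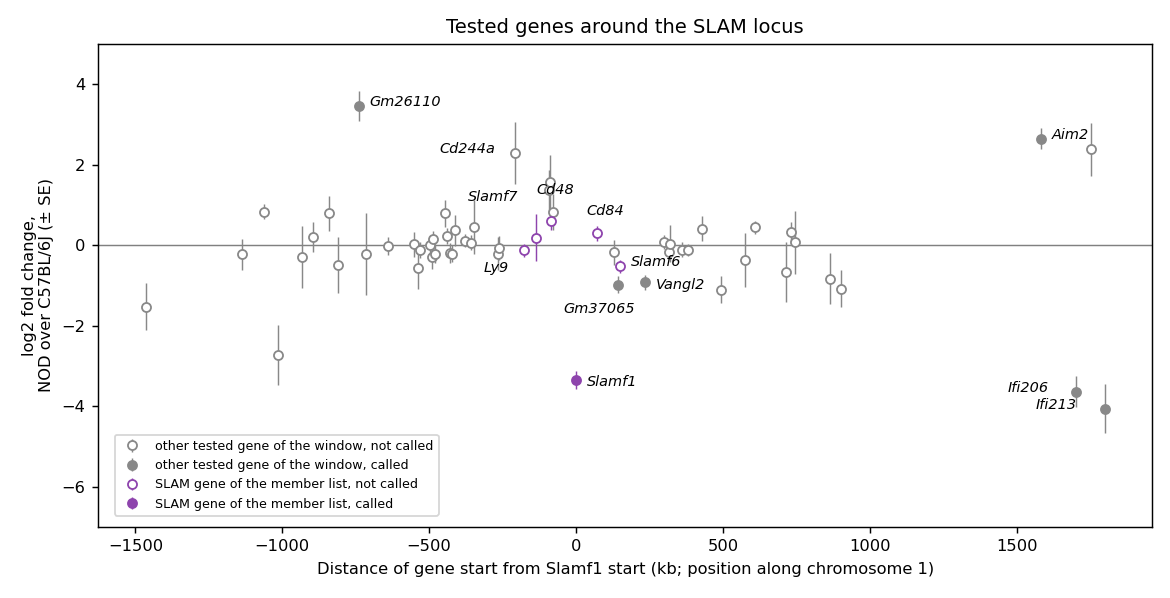
Log2 fold change (NOD over C57BL/6J, ± SE) of the 59 tested genes of the window against the distance of each gene's start from that of Slamf1, in kb; members are purple, other genes grey, and filled points have an adjusted p under 0.05. Slamf1 at -3.36 is the only filled member, and Gm37065 and Vangl2 are the filled genes nearest to it.

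Profiles over the 8 libraries most like that of Slamf1 belonged to other genes called lower in NOD. Among 11784 other tested protein-coding genes the highest Pearson r of log2 CPM were those of Trim12c (0.999; 11.3 ± 1.91 CPM in NOD and 44.6 ± 0.695 CPM in C57BL/6J), Chl1 (0.998) and Btbd11 (0.998), on chromosomes 7, 6 and 10. For Sh2d1a they were Zfp273 (0.977), Vps35 (0.965) and Glrx3 (0.965), none of them called. The values of Slamf1 vary mainly by strain, so a high r with it falls to genes that also differ by strain. The libraries share strain, sample and depth, so these values only describe likeness.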

How the data were processed

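Per the labels' protocols, live single CD4+ CD8+ thymocytes were sorted and total RNA was made into libraries with a stranded low-input kit. Per the submitters' processing notes, GRCm38, STAR 2.5.0a and HTSeq 0.6.1 were used; the annotation release, strand setting and duplicate removal are not given in the sources used here. The authors deposited raw counts per Ensembl gene, 1 table per library. Rows that name no gene, mostly reads that overlapped no counted feature (40.0% to 59.1% of a library's listed reads), were left out. Of 53465 genes, 53360 matched GENCODE M21.

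Libraries of 1 strain and B number were summed (2 against 2 samples). Libraries of 1 sample differed by more than sampling noise, so none was a repeat deposit. Genes passing filterByExpr were scaled by TMM and put through edgeR 4.0.16's quasi-likelihood test (R 4.3.3; robust, strain as the only term, two-sided), Benjamini-Hochberg adjusted over 17291 genes and called under 0.05. The SE is the fold change divided by the square root of F. The fit was tested on simulated data. There it missed most changes of 2-fold or less, so a gene not called is not shown to be unchanged. DESeq2 1.42.0, RLE scaling, no filter, the B number as replicate block, 1 T number alone, unsummed libraries and leaving out each sample were alternatives.

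The members and lists were chosen with earlier results of these data known. Named genes are the members, Cd244a and Cd2, called genes and the 2 most abundant of each list, called protein-coding genes of the window and the 3 profiles most like Slamf1 and Sh2d1a; others (Fyn, Cd1d1, Zbtb16, Traj18, Klrb1c, Il7r, Sh2d1b1, Tenm1, Gm37065, Gm26110 and markers) were added after their values were seen. Marker lists are given by sums and counts. B numbers do not pair samples by any label.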

Additional observations from a re-analysis of the deposited data

Results flagged for a closer look

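Dixon's test was run on 18 sets of member values, each the 4 libraries of 1 strain. In 4 sets 1 library stood apart from the others. The chance rate of the test, about 5% of sets, holds for normally spread values and not for a few reads. A set in which only 1 library has reads is flagged whatever their number, as for Slamf8 in C57BL/6J and Slamf9 in NOD. The number of flagged sets therefore cannot be set against that rate. Cd48 was at 35.3 CPM in NOD library B1 T2, against 25.3 to 26.4 CPM in the other NOD libraries. Slamf8 was at 0 CPM in NOD library B1 T1 and at 0.0629 CPM, which is 1 read, in C57BL/6J library B2 T1 with 0 in the others. Slamf9 was at 0.198 CPM, or 6 reads, in NOD library B2 T1 and at 0 in the other NOD libraries.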

How the results depend on the processing

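Slamf1 kept its direction and its call in all 12 other fits, with log2 fold changes of -3.63 to -3.13. Slamf6, Cd84, Ly9 and Cd48 kept their direction in all 12. Slamf7, at 0.19, was at -0.22 without NOD sample B2 and -0.34 without C57BL/6J sample B1, within a range of -0.34 to 1.03 over the 12, and Sh2d1a, at 0.14, was at -0.14 without NOD sample B1 and -0.01 with T1 libraries alone, within -0.14 to 0.37; the cause was not tested. Against 637 genes called, the count was 256 to 1389 without 1 sample, 1188 with no filter, 342 with T2 libraries alone and 1535 with 8 separate libraries, where the number of members called was 3 in place of 1, that of window genes 14 in place of 7, and that of signalling genes 1 (Bcl10). Called partners numbered 1 (Cd2) with no filter and with 8 libraries, and 0 to 1 without 1 sample. Called CD1d genes numbered 0 to 1 without 1 sample and 2 with 8 libraries, and NKT genes 2 with no filter and with 8 libraries, 1 with DESeq2 and 0 to 1 without 1 sample. With the replicate block 513 genes and 1 member (Slamf1, -3.37) were called. Samples of the same B number did not deviate together (r = -0.123 over genes), and with crossed numbers, a pairing chosen after seeing the data, 768 genes and 1 member were called. On raw totals 17 of 18 member levels moved by less than 1 SD; Ly9 in NOD was at 55.4 CPM. Where 1 sample was left out, the lone sample of its strain was assumed to vary like the other strain's.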
